A study of Arabidopsis thaliana with 6 samples.

Results

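Class III peroxidases are the secreted peroxidases of plants, and 6 of their genes are described here in Arabidopsis thaliana seedlings: AT4G26010, AT1G30870, AT5G39580, AT4G36430, AT2G37130 and PRXR1 (locus AT4G21960). The genes were chosen by name, with earlier results of these data known, and each is measured by 1 probe set among 22746 tested probe sets. The wider family has 73 loci on the list used here, of which 55 are measured by a probe set that names 1 gene: these 6 and 49 others. The 6 arrays (Affymetrix ATH1) hold total RNA of whole Col-0 seedlings harvested at 7 days, with 2 biological replicates in each of 3 conditions. Light seedlings grew under 16 h of light and 8 h of dark a day. H2O2 seedlings grew in the dark with 5 mM hydrogen peroxide, and dark seedlings grew in the dark with nothing added. All grew on half-strength MS medium, and the series description gives darkness as a way to lower the seedlings' own H2O2. The sources used here do not say how long the H2O2 treatment lasted or how it was applied.

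These enzymes carry a haem group and use H2O2 as a substrate. With it they oxidise phenolic compounds, monolignols and the tyrosines of wall proteins such as extensins, which cross-links and stiffens the cell wall and builds lignin. They can also produce reactive oxygen species in the wall, which loosens it, so the family acts both in growth and in defence. The compound added in this study is thus a substrate of the enzymes that these genes encode.

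Levels are log2 expression values, so a difference of 1 is a 2-fold change. Levels of different genes are not set against each other, because probe sets differ in brightness. Differences were tested with limma over all tested probe sets, and a gene is said to have changed where its Benjamini-Hochberg adjusted p lies under 0.05. All 55 family probe sets have the plain _at suffix, which this array design gives to probe sets meant for 1 gene. Whether they also bind transcripts of close relatives was not tested. A gene is called dim in a condition where its mean there is below 5.16; 40% of probe sets have an overall mean below that value. None of the 6 genes is dim in any condition, while 16 of the other 49 are dim in all 3. Replicate arrays correlated at r = 0.993 in light, 0.995 with H2O2 and 0.993 in the dark across tested probe sets. The 9 green tissue markers checked against the labels were all higher in light than in the dark, by 1.22 to 4.01 on the log2 scale (SBPASE most, then PRK at 3.27). All 9 were called higher, against 23% of all tested probe sets. With H2O2, PRK at 0.67 and PSAN at 0.57 were higher than in the dark, calls that ended without dark replicate 2 or either H2O2 array, and for PSAN also without dark replicate 1. The other 7 markers did not pass with H2O2, and of these LHCB4.3 (-0.34) and LHCB4.1 (-0.084) lay under the dark level. Of all tested probe sets, 12.3% were called higher with H2O2. The 9 markers' summed level was 16.24 and 16.20 in light, 14.20 and 13.97 with H2O2 and 13.83 and 13.89 in the dark (log2 of the summed values, per array). Because whole seedlings were sampled, fewer cells of a type and less RNA per cell cannot be told apart.

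By the order of their mean levels, the 6 genes fell into 4 patterns. AT4G26010 and AT1G30870 were highest in light and lowest with H2O2. AT5G39580 and AT4G36430 were highest in the dark and lowest in light. AT2G37130 was highest with H2O2 and far lower in light. AT4G36430 and AT2G37130 are parted by the sign of small H2O2 steps (-0.58 and 0.55 against dark). Both calls ended when single arrays were left out. PRXR1 stayed within 0.69 over all 6 arrays and was highest with H2O2.

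**Figure D1:**
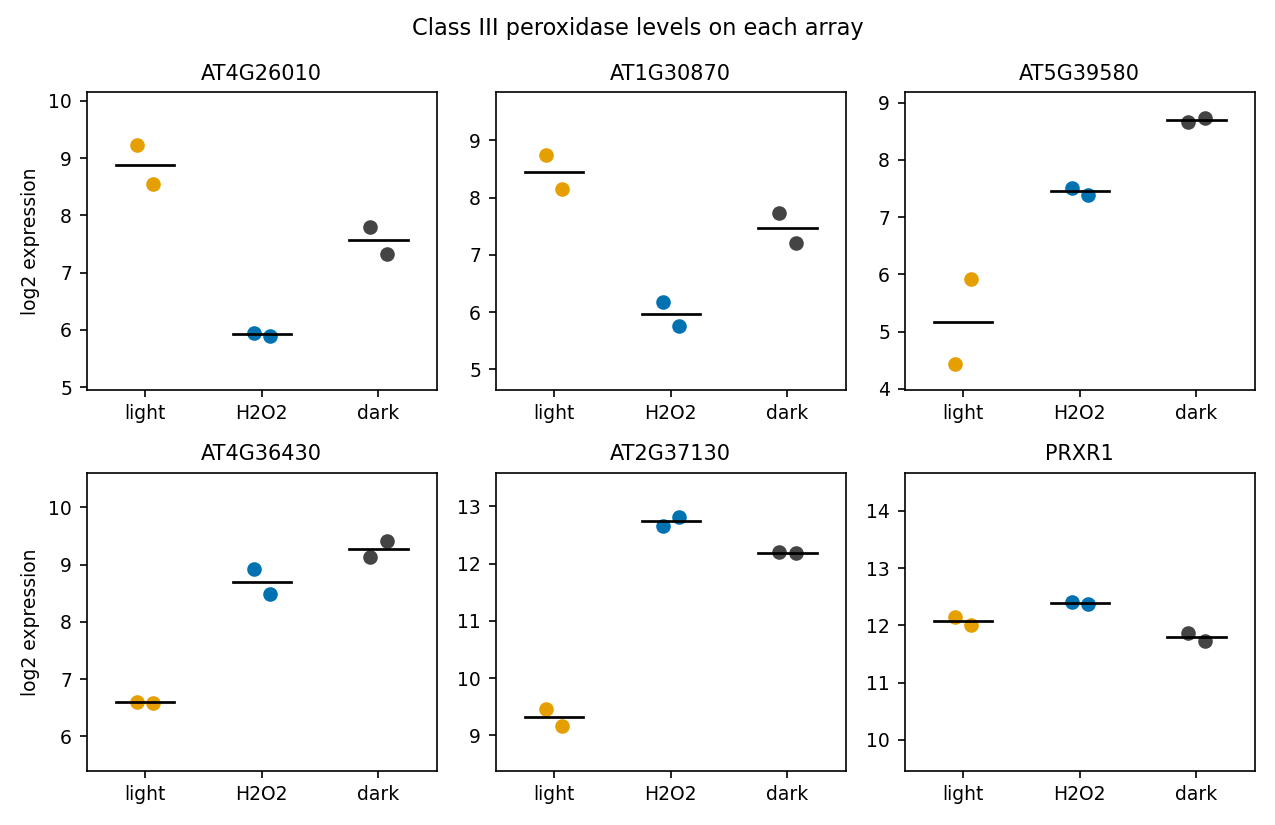
Log2 expression (vertical axis) of each of the 6 genes on the 2 arrays (points) of each condition (horizontal axis), with the mean as a line. Each panel spans the same number of log2 units around its own centre, so changes but not levels compare between panels: AT4G26010 and AT1G30870 are lowest with H2O2, AT5G39580, AT4G36430 and AT2G37130 are lowest in light, and PRXR1 is nearly flat.

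AT4G26010 encodes a peroxidase of root hairs, where such enzymes act on extensins in the growing wall. Its log2 level was 9.23 and 8.55 in light, 5.95 and 5.89 with H2O2, and 7.80 and 7.33 in the dark. Both light arrays lay above both dark arrays, and both dark arrays above both H2O2 arrays. AT4G26010 was lower with H2O2 than in the dark by a log2 difference of -1.64 ± 0.23 (SE, n = 2 arrays per group, adjusted p = 0.00189), which is 3.13-fold, and 1.12% of all probe sets had a larger absolute difference. With the arrays centred on their hybridisation controls the difference was -0.87 and did not pass (adjusted p = 0.208). In light it was higher than in the dark by 1.32 ± 0.23 (adjusted p = 0.00121) and higher than with H2O2 by 2.97 ± 0.23 (adjusted p = 1.13e-05), a 7.82-fold difference.

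AT1G30870, whose transcript is likewise found in root hairs, had log2 levels of 8.74 and 8.16 in light, 6.18 and 5.75 with H2O2, and 7.72 and 7.21 in the dark. The order of the conditions was that of AT4G26010, again with no overlap. AT1G30870 was 2.83-fold lower with H2O2 than in the dark (log2 difference -1.50 ± 0.24, adjusted p = 0.00365), 1.98-fold higher in light than in the dark (0.99 ± 0.24, adjusted p = 0.00846) and 5.60-fold higher in light than with H2O2 (2.49 ± 0.24, adjusted p = 4.55e-05). Under the hybridisation-control centring its H2O2 difference was -0.72 and did not pass (adjusted p = 0.252). The rise of AT1G30870 in light against dark lost its call when dark replicate 2 was left out (adjusted p = 0.0686), and when light replicate 1 was (0.0609).

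The neighbours of these genes by expression were found among 13354 other genes as those with the smallest distance between the 6 array values, each gene centred on its own mean. Nearest to AT4G26010 were AT1G30870 at 0.56, EXPA7 at 0.60 and AT4G30650 at 0.73. Nearest to AT1G30870 were EXPA18 at 0.33, AT4G26010 at 0.56 and EXPA7 at 0.58. EXPA7 and EXPA18 are expansins of root hairs, proteins that loosen the wall as the hair grows. Only 8 genes lay within a distance of 1 of AT4G26010, and 15 of AT1G30870.

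EXPA7 had log2 levels of 6.60 and 6.43 in light, 3.83 and 4.09 with H2O2, and 5.67 and 5.17 in the dark, and is dim with H2O2. EXPA18 had 6.68 and 6.45 in light, 4.44 and 4.01 with H2O2, and 6.05 and 5.32 in the dark, and is dim with H2O2 as well. These were the 2 of 8 root hair markers with a single-gene probe set. The other 4 measured genes of a longer list of root hair and extensin-type wall protein genes were not higher in light than in the dark. AT1G26250, AT1G26240 and AT1G23720 were lower, at -5.43, -3.36 and -1.27, and HRGP1, at 0.05, did not pass. AT1G23720 and HRGP1 are read by probe sets with the suffix _x_at, not the plain _at, which may also bind other transcripts. The summed level of EXPA7 and EXPA18 was 7.64 and 7.44 in light, 5.17 and 5.05 with H2O2, and 6.87 and 6.24 in the dark (log2 of the sum, per array). Replicate 1 was above replicate 2 in the dark and in light for AT4G26010, AT1G30870, EXPA7 and EXPA18. The rise of EXPA18 in light over dark lost its call without dark replicate 2 or light replicate 1, as that of AT1G30870 did. The number of root hairs or their cells was not measured, and its part in these differences was not tested. None of the 5 endodermis markers on the list has a single-gene probe set in the annotation used, so they were not measured.

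**Figure D2:**
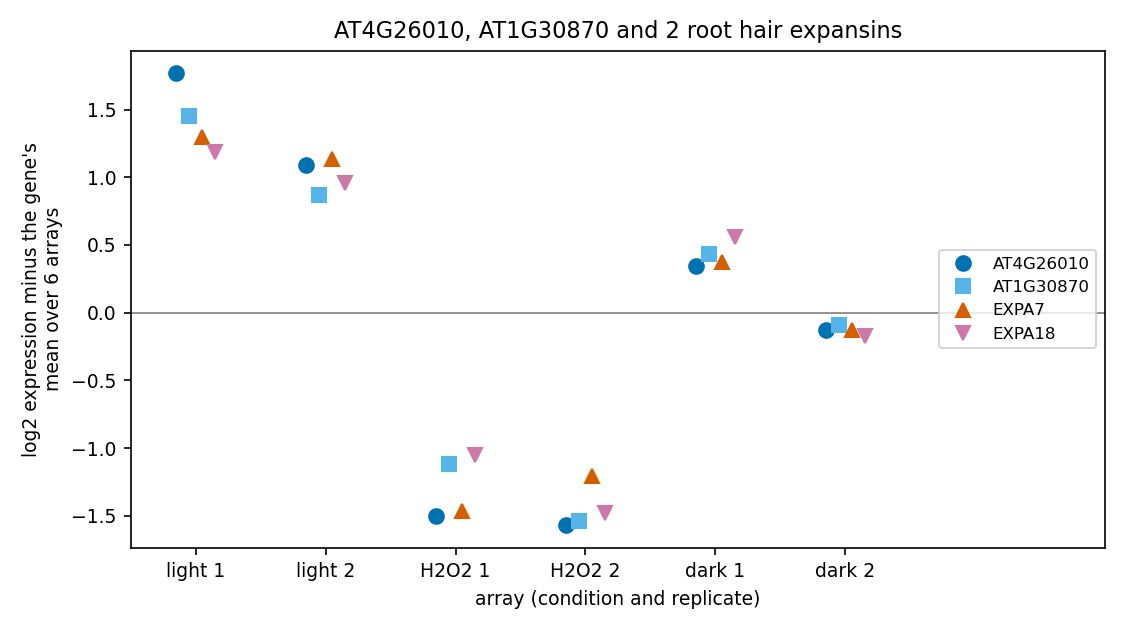
Log2 expression minus the gene's own mean over the 6 arrays (vertical axis) on each array (horizontal axis), for AT4G26010, AT1G30870, EXPA7 and EXPA18. All 4 genes lie between 0.87 and 1.77 above their mean in light, between 1.57 and 1.05 below it with H2O2, and from 0.17 below to 0.56 above it in the dark. By these same values EXPA7 is among the nearest genes of both peroxidases and EXPA18 of AT1G30870, so their likeness here is built in. The other measured root hair and extensin-type wall protein genes are not shown.

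AT5G39580 has been tied to root hair growth in the cold and, when overexpressed, to resistance to the fungus Botrytis cinerea. Its log2 level was 4.43 and 5.91 in light, 7.51 and 7.38 with H2O2, and 8.67 and 8.74 in the dark. The light arrays differ from each other by 1.48, the widest gap between replicates among the 6 genes, and light replicate 1 lies under the dim bound, so the size of the light difference is uncertain. No array overlapped with another condition. AT5G39580 was 11.5-fold lower in light than in the dark (log2 difference -3.53 ± 0.38, adjusted p = 5.39e-05) and 4.83-fold lower in light than with H2O2 (-2.27 ± 0.38, adjusted p = 0.00111). With H2O2 it was lower than in the dark by -1.26 ± 0.38 (adjusted p = 0.0449). That last call ended when any 1 of the 4 H2O2 and dark arrays was left out, with differences from -1.32 to -1.19. It also ended under the hybridisation-control centring (-0.48, adjusted p = 0.402). These fits keep the light arrays, whose wide gap enters the SE. In the limma fit of the 2 groups alone, the same difference of -1.26 passed (adjusted p = 0.000866).

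AT4G36430 had log2 levels of 6.60 and 6.59 in light, 8.91 and 8.48 with H2O2, and 9.14 and 9.41 in the dark. The light replicates were nearly equal and lay far under the other 4 arrays, and the H2O2 arrays lay just under the dark arrays. AT4G36430 was 6.43-fold lower in light than in the dark (log2 difference -2.68 ± 0.17, adjusted p = 2.64e-06) and lower in light than with H2O2 by a log2 difference of -2.10 ± 0.17 (adjusted p = 1.54e-05). The fall with H2O2 was small, at -0.58 ± 0.17 (adjusted p = 0.0453), and it was not called with the replicate number as a block (adjusted p = 0.0586). Leaving out 1 array ended it for every array but H2O2 replicate 1 (adjusted p 0.0543 to 0.264). Centring the arrays on the hybridisation controls turned it to 0.20.

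The nearest gene to AT4G36430 was another class III peroxidase, AT2G41480, at a distance of 0.28, followed by XTH33, a xyloglucan endotransglucosylase/hydrolase of the wall, at 0.29 and AT2G44010 at 0.30. AT2G41480 was lower in light than in the dark by a log2 difference of -2.61 ± 0.18 (adjusted p = 4.04e-06), and its H2O2 difference of -0.33 ± 0.18 did not pass (adjusted p = 0.241). Within a distance of 1 of AT4G36430 lay 189 of the 13354 other genes. Such counts also depend on a gene's range and on the gaps between its replicates. The nearest to AT5G39580 were AT1G15010, AT1G69890 and ATL8, at 0.78, 0.87 and 0.89, with 5 genes within 1.

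AT2G37130 raises resistance to Botrytis cinerea when overexpressed, as AT5G39580 does. Its log2 level was 9.47 and 9.16 in light, 12.67 and 12.81 with H2O2, and 12.20 and 12.18 in the dark. Both H2O2 arrays were above both dark arrays by a small step, and both light arrays were far under all others. AT2G37130 was 10.7-fold lower in light than with H2O2 (log2 difference -3.42 ± 0.15, adjusted p = 4.92e-07), and 1.07% of all probe sets had a larger absolute difference. In light it was 7.34-fold lower than in the dark (-2.88 ± 0.15, adjusted p = 7.53e-07). The rise with H2O2 over dark was 1.46-fold (0.55 ± 0.15, adjusted p = 0.0306), and it ended when any 1 of the 4 arrays concerned was left out (adjusted p 0.0870 to 0.164), with the arrays centred on their own medians (adjusted p = 0.0595) and on the hybridisation controls (1.32, adjusted p = 0.0581). Its nearest genes were AT3G48970, OLEO3, an oleosin of seed oil bodies, and AT1G73120, at 0.48, 0.51 and 0.51.

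PRXR1 is expressed in most organs of the plant. Its log2 level was 12.15 and 12.00 in light, 12.41 and 12.38 with H2O2, and 11.86 and 11.72 in the dark. The arrays did not overlap between conditions, but the steps between them were small. PRXR1 was higher with H2O2 than in the dark by 0.60 ± 0.13 (adjusted p = 0.0139), a 1.52-fold difference, and the call was lost when dark replicate 2 or an H2O2 replicate was left out (adjusted p 0.0709 to 0.0899). Light against dark gave 0.29 ± 0.13 (95% interval -0.02 to 0.59, adjusted p = 0.111), and light against H2O2 gave -0.31 ± 0.13 (95% interval -0.62 to -0.01, adjusted p = 0.0951). Neither passed, and the intervals allow a light difference of up to 0.59 from the dark. With a prior variance that follows the mean signal, light against H2O2 passed (adjusted p = 0.0446). Within a distance of 1 of PRXR1 lay 8121 genes, which follows from its small range, and the nearest, AT1G15280, VPS2.1 and AT4G33540, were at 0.11 to 0.13.

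**Figure D3:**
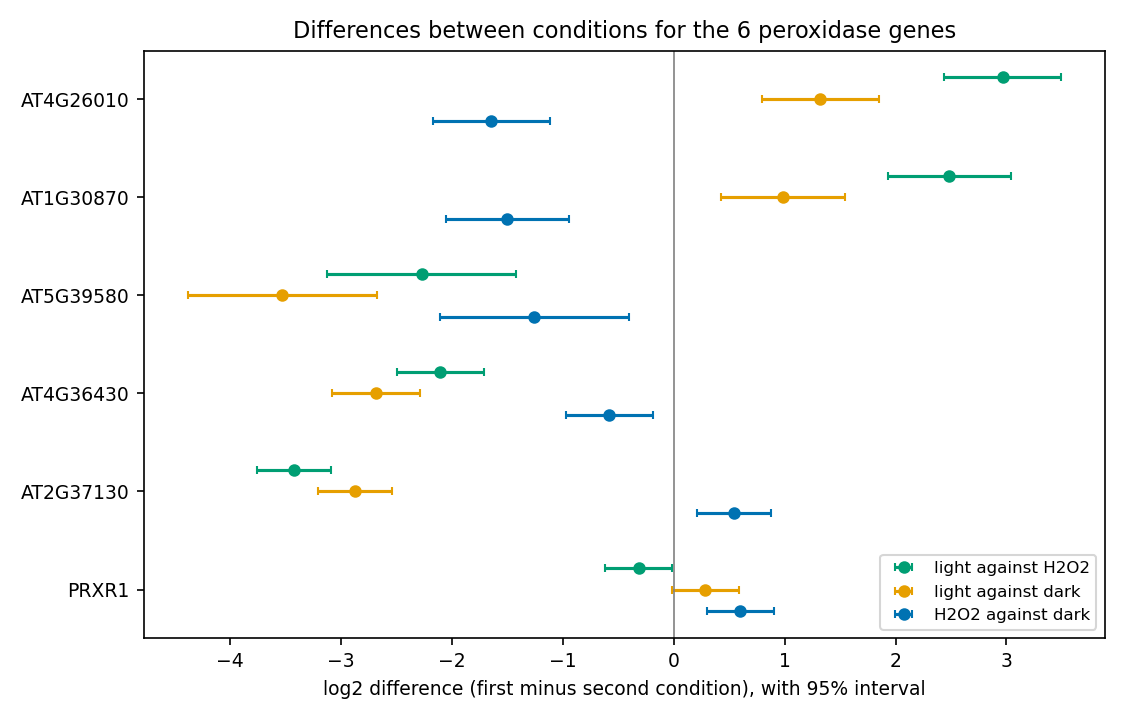
Log2 difference between conditions (horizontal axis, first minus second condition) for each of the 6 genes, with points for the limma estimate and bars for its 95% interval. AT4G26010 and AT1G30870 lie above 0 for both light comparisons and under 0 for H2O2 against dark, and PRXR1 has the smallest light differences.

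Between H2O2 and dark, all 6 genes were called, 2 higher and 4 lower, against 20.5% of all tested probe sets called (12.3% higher, 8.18% lower). The 6 genes were chosen with earlier results of these data known, so their counts beside such shares, here and below, are descriptive only. None of the 6 is dim, and the share called was higher among brighter probe sets. Leaving out the dimmest 40% of probe sets gave 4425 calls, against 4656 over all. Between light and dark it gave 9112, against 10920. Of the other 49 family genes, 1 was higher between H2O2 and dark (2.04%), 12 were lower (24.5%) and 36 did not pass. Their median log2 difference was -0.28, against -0.02 over all tested probe sets. Scaling the arrays to their hybridisation controls made that family median 0.50 and shifted the median of all probe sets by 0.78. Under that centring 1 of the 6 genes was called, PRXR1 as higher, and 1 of the other 49, AT5G47000, also as higher. Centred on the array medians, which shifted all probe sets by -0.12, the 6 genes had 1 higher and 4 lower. The number of the 6 genes called was 3 without dark replicate 1, 2 without dark replicate 2, 3 without H2O2 replicate 1 and 2 without H2O2 replicate 2. AT4G26010 and AT1G30870 were called under each of these. Calls among the other 49 and over all tested probe sets also fell without each of these arrays, partly because fewer arrays were fitted.

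The other family genes with the largest falls with H2O2 were AT5G19890, AT2G39040 and AT3G03670. AT5G19890 averaged 4.78 ± 0.68 with H2O2 and 6.27 ± 0.46 in the dark (SD, n = 2 each; log2 difference -1.49 ± 0.30, adjusted p = 0.00991). AT2G39040 had 4.57 and 3.97 with H2O2 and 5.97 and 5.39 in the dark (-1.41 ± 0.25, adjusted p = 0.00506), and AT3G03670 had 3.85 and 4.07 with H2O2 and 5.81 and 4.88 in the dark (-1.38 ± 0.26, adjusted p = 0.00728). All 3 are dim with H2O2, so their sizes are uncertain. Each call ended without 1 or more arrays: AT5G19890 without dark replicate 1 or H2O2 replicate 2 (adjusted p = 0.0610 and 0.0655), AT2G39040 without H2O2 replicate 2 (0.0518) and AT3G03670 without H2O2 replicate 1 (0.0698). The only rise was that of AT5G47000, dim in every condition, at 0.65 ± 0.15 (adjusted p = 0.0163), which ended without dark replicate 2 or H2O2 replicate 1.

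Between light and dark, 5 of the 6 genes were called, 2 higher and 3 lower, against 48% of all tested probe sets (23% higher, 25% lower). Being called in light sets the 6 genes apart little from so high a share. Of the other 49, 7 were higher, 21 were lower and 21 did not pass. Their median was -0.27, and 0.42 after scaling to the hybridisation controls, against a shift of 0.69 for all probe sets. That centring left 6 higher and 7 lower among the 49 and changed none of the 5 calls.

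AT3G49960 had the largest rise in light among the other family genes, with log2 levels of 7.80 and 6.98 in light and 4.11 and 3.90 in the dark (3.38 ± 0.24, adjusted p = 4.79e-06). AT5G58390 had 6.92 and 6.57 in light and 3.75 and 3.61 in the dark (3.07 ± 0.21), and AT5G64110 had 7.46 and 7.48 in light and 5.64 and 5.16 in the dark (2.07 ± 0.17). AT3G49960 and AT5G58390 are dim in the dark. The largest falls were those of AT5G66390, AT1G49570 and AT5G19890, at -2.63 ± 0.17, -2.63 ± 0.18 and -2.61 ± 0.30. AT5G66390 had 7.53 and 7.26 in light and 10.15 and 9.90 in the dark. AT1G49570 and AT5G19890 are dim in light.

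Between light and H2O2, 5 of the 6 genes were called, 2 higher and 3 lower, against 39.5% of all tested probe sets (17.4% higher, 22% lower). Groups did not overlap for any of the 6 genes in any comparison. That was so for 61.1% of all tested probe sets between H2O2 and dark, 72.7% between light and dark and 67.7% between light and H2O2. Of the other 49 genes, 9 were higher, 18 were lower and 22 did not pass. The largest rises in light over H2O2 were those of AT5G58390, AT1G34510 and AT3G49960, at 3.49 ± 0.21, 3.37 ± 0.27 and 3.31 ± 0.24. The largest falls were those of AT2G41480, AT5G66390 and AT1G44970, at -2.27 ± 0.18, -2.24 ± 0.17 and -2.07 ± 0.20. The 3 genes with rises are dim with H2O2, and AT1G44970 is dim in light.

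**Figure D4:**
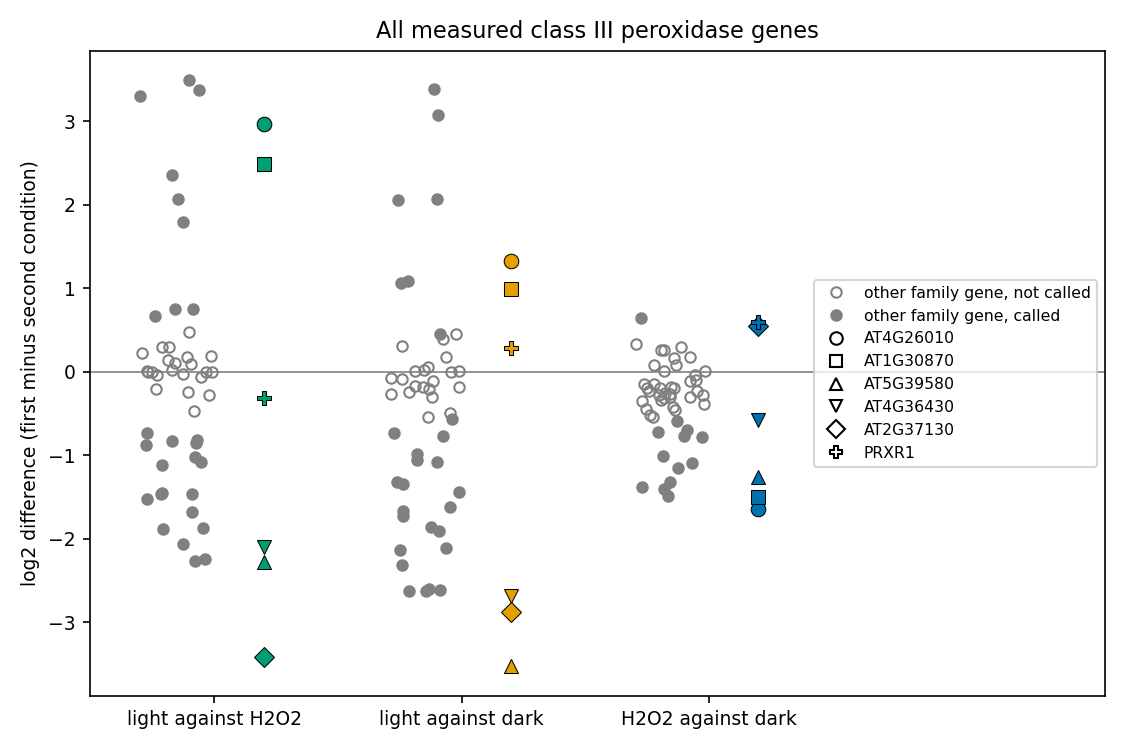
Log2 difference (vertical axis, first minus second condition) of the 6 genes (coloured symbols) and the 49 other measured class III peroxidase genes (grey circles, filled where called by limma) in each comparison. Differences spread from -3.53 to 3.38 in light against dark and from -1.64 to 0.65 for H2O2 against dark.

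Some other family genes were called against dark both with H2O2 and in light. Both comparisons use the same 2 dark arrays, so the values are given side by side, with no test and nothing read from their number. AT1G34510 had -1.32 ± 0.27 with H2O2 and 2.06 ± 0.27 in light, and AT2G34060 had -1.01 ± 0.21 with H2O2 and 1.06 ± 0.21 in light, which is the pattern of AT4G26010 and AT1G30870. Their H2O2 calls ended without H2O2 replicate 1, that of AT1G34510 also without H2O2 replicate 2 and that of AT2G34060 also without dark replicate 2 (adjusted p 0.0599 to 0.0871). Lower in both were AT1G49570 (-1.10 with H2O2, -2.63 in light), AT5G19890 (-1.49 and -2.61 in the same order), AT3G03670 (-1.38 and -1.62), AT5G64100 (-0.78 and -1.86), AT5G06730 (-0.59 and -1.32) and AT2G35380 (-0.79 and -0.77). AT5G64100 and AT5G06730 turned to 0.00316 and 0.19 with H2O2 under centring on the hybridisation controls. The H2O2 calls of AT5G64100, AT5G06730 and AT2G35380 ended without H2O2 replicate 2, those of AT5G64100 and AT5G06730 also without dark replicate 1, and that of AT5G06730 also without dark replicate 2. AT5G47000 was higher in both, at 0.65 with H2O2 and 0.45 in light, and the light call ended without light replicate 1 or either dark array (adjusted p 0.0620 to 0.181). Scaled to the hybridisation controls, the light differences of AT5G64100, AT5G47000, AT3G03670, AT5G06730 and AT2G35380 did not pass (adjusted p 0.0658 to 0.908).

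Related genes were read from short lists, few of whose members have a single-gene probe set. The lists were chosen with earlier results of these data known, so their counts are descriptive too. The lists of Casparian strip genes and of root hair transcription factors have no member with such a probe set, so they were not measured. Of 6 measured root hair and extensin-type wall protein genes, all were called lower with H2O2 than in the dark, at a median of -1.70. Of all tested probe sets, 8.18% were called lower. The _x_at probe sets of AT1G23720 and HRGP1 may also bind other transcripts, so the 6 may not be separate readings. The largest falls were those of 2 extensin-type genes, AT1G26240 at -2.88 ± 0.23 (adjusted p = 0.00022) and AT1G26250 at -1.93 ± 0.23 (adjusted p = 0.000903). Whether any of the peroxidases described here acts on their proteins was not tested. In light against dark 2 were higher, 3 were lower and 1 did not pass (23% and 25% of all tested probe sets were higher and lower), with AT1G26250 at -5.43 ± 0.23 and AT1G26240 at -3.36 ± 0.23. In light against H2O2 4 were higher and 1 was lower (17.4% and 22% of all tested probe sets). AT1G26240 is dim in light and with H2O2, and AT1G26250 in light. AT1G26240 kept its fall with H2O2 under centring on the hybridisation controls (-2.10), while AT1G26250, EXPA7 and EXPA18 did not pass there (adjusted p = 0.105, 0.270 and 0.271).

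Of 3 measured NADPH oxidase genes, which supply the superoxide from which wall H2O2 is formed, limma called none with H2O2 (2 at an unadjusted p under 0.05), against 20.5% of all tested probe sets, with AT4G11230 at -0.52 ± 0.20. AT4G25090, at -0.46 ± 0.14 (adjusted p = 0.0511), passed with the arrays centred on their medians, without the dimmest probe sets, without either light array and in the fit of the 2 groups alone (adjusted p 0.0169 to 0.0423). AT4G11230 passed with the arrays centred on their medians (adjusted p = 0.0407). In light against dark 2 were lower, AT4G25090 at -1.19 ± 0.14 and AT4G11230 at -0.69 ± 0.20, against 48% of all tested probe sets called. Of all tested probe sets, 12.3% were called higher and 8.18% lower with H2O2, and 23% and 25% in light, both against dark. With so few genes measured, nothing is read from the counts of this list or of the ascorbate peroxidase and monolignol lists. AT4G11230 is dim in all 3 conditions, so its sizes are uncertain, and its light call ended without dark replicate 1 or light replicate 2. The ascorbate peroxidase genes SAPX and TAPX, which remove H2O2 in chloroplasts and are the 2 measured of the 10 catalase and ascorbate peroxidase genes, were not called by limma with H2O2 (0.29 ± 0.14 and 0.41 ± 0.16; 1 at an unadjusted p under 0.05). In light against dark both were higher, SAPX by 0.54 ± 0.14 and TAPX by 3.25 ± 0.16, and the SAPX call ended without light replicate 1 or dark replicate 1. Of 3 monolignol synthesis genes, which make substrates of these peroxidases, CCOAMT (-1.52 ± 0.18) and HCT (-0.53 ± 0.13) were lower with H2O2, and CCOAMT (-5.38 ± 0.18), CCR2 (-0.70 ± 0.15) and HCT (-0.59 ± 0.13) in light, both against dark. CCOAMT is dim in light, so the size of its light difference is uncertain. HCT turned to 0.25 with H2O2 and 0.095 in light under centring on the hybridisation controls, and its H2O2 call ended without any 1 of the 4 arrays concerned (adjusted p 0.0547 to 0.116). CCOAMT did not pass with H2O2 under that scaling (adjusted p = 0.246), and CCR2 passed with H2O2 when the arrays were centred on their medians (adjusted p = 0.0316). Scaled to the hybridisation controls, the light differences of AT4G25090, AT4G11230, SAPX and CCR2 did not pass (adjusted p 0.0504 to 0.999).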

How the data were processed

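Log2 expression values of 22810 probe sets on 6 arrays were deposited by the authors, made with RMA, per the submitters' processing notes, which also name limma; no source used here states versions, chip definition or settings, and the log2 scale is read from the range of 2.22 to 14.23. The 64 control probe sets were left out, and 22746 were tested with no filter. Genes were named from the platform's annotation, updated through RefSeq (TAIR10.1): 13513 probe sets name 1 gene (13355 genes), 503 name several and 8730 are unnamed here. The brightest probe set stood for a gene. No coordinates are given, since no build is named for the arrays.

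limma 3.58.1 in R 4.3.3 was fitted over all 6 arrays (lmFit, eBayes; 3 residual and 5.84 prior degrees of freedom), 2-sided, with Benjamini-Hochberg adjustment over all tested probe sets. With 2 arrays a group, array number limits precision. The steps were tested on simulated data. The 6 genes, the lists and the tests were chosen with earlier results of these data known. Named were the 6 genes and the 3 largest called rises and falls of other family genes in each comparison. Also named were family genes called against dark in both comparisons, and up to 2 genes of each other list in each comparison. The 3 nearest genes of each of the 6 were named too, and EXPA7 and EXPA18 as markers. AT1G23720 and HRGP1 are named outside these rules, and their own differences were not followed under the alternatives. Alternatives were 2 other array scalings, a filter on dim probe sets, each array left out, a replicate block, pairwise fits and a prior with a trend. Over the probe sets as a whole, samples with the same replicate number did not deviate together, so the block is given only as an alternative. AT4G26010, AT1G30870, EXPA7 and EXPA18 did deviate the same way in the dark and in light.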

Additional observations from a re-analysis of the deposited data

How the results depend on the processing

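Between H2O2 and dark, centring on the hybridisation controls left 1 of the 6 genes called, 1 of the 49 other family genes and 2379 of all probe sets (98.9% of them higher, against 60% as reported; 39.3% with array-median centring). Between light and dark it left 13 of the 49 and 5261 of all (88.2% higher, against 48%), and between light and H2O2 16 of the 49 and 2576 of all (54.4% higher, against 44.2%). Part is built in, since it adds the controls' replicate differences to every probe set. The H2O2 differences of AT4G36430 (0.20), AT5G06730 (0.19), AT5G64100 (0.00316), HCT (0.25), XTH33 (0.084) and AT2G44010 (0.24) and the light difference of HCT (0.095) against dark turned there, and the cause was not tested. With 1 array left out, calls between H2O2 and dark ran from 2 to 5 for the 6 genes, 5 to 13 for the 49 and 2135 to 4949 for all probe sets, partly because fewer arrays were fitted. Whichever array was left out, 4 or 5 of the 6 genes were called between light and dark and 5 between light and H2O2. The replicate block left 5, 5 and 5 of the 6 genes called for H2O2 against dark, light against dark and light against H2O2; deviations of same-numbered arrays correlated at -0.032, 0.069 and -0.0019. Signal near background limits the sizes of dim genes.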
